A study of Caenorhabditis elegans with 36 samples.

Results

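The p38 immune pathway of Caenorhabditis elegans was followed here through 9 genes, out of 24931 named genes in the deposited count tables, in RNA from whole animals. They are the adaptor gene tir-1, the kinase genes nsy-1, sek-1 and pmk-1, the transcription factor gene atf-7 and the output genes sysm-1, C17H12.8, K08D8.5 and F08G5.6. They were chosen as a pathway and selected on 1 measured value, the CPM (read count scaled to library size) of sysm-1, which was lower in 2-day adults of both 123CUG strains than in those of either 0CUG strain. The values of that comparison are therefore given as a description, with no test. There were 12 groups of 3 libraries, and each genotype was collected under the labels 2-day adult and L4, the last larval stage. The 123CUG strain 1 carries mgIs64 and the 123CUG strain 2 carries mgIs84, both of which express gfp RNA with 123 CUG repeats under the myo-3 promoter, which drives expression in body wall muscle. Their controls, 0CUG strain 1 with mgIs65 and 0CUG strain 2 with mgIs85, carry the same gfp construct with 0 repeats. The mbl-1(tm1563) animals carry a mutant allele of mbl-1, which encodes the splicing factor Muscleblind, and N2 is the wild type with no transgene. All of them have the Bristol background, and all were synchronised with NaOCl and fed HT115 bacteria holding an empty RNAi vector. No pathogen is named in the labels. Each transgene is an integrated array of its own, and no more than 2 independent strains stand for either construct.

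TIR-1, the worm orthologue of mammalian SARM1, activates the kinase NSY-1, which phosphorylates SEK-1, which phosphorylates the p38 kinase PMK-1. In the intestine PMK-1 acts on ATF-7, a bZIP factor that represses immune genes until PMK-1 phosphorylates it, and the secreted products of its targets act against bacteria in the gut. The cascade is controlled mainly by phosphorylation, which RNA levels do not show, and parts of it also act in epidermis and neurons.

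The adaptor gene tir-1 (F13B10.1) lies on chromosome III at 3869596 to 3901466, and atf-7 (C07G2.2) on III at 4491960 to 4494450. The MAP kinase kinase kinase gene nsy-1 (F59A6.1) lies on chromosome II at 5022764 to 5029982, where 41 bases overlap the antisense gene wdr-83, so reads there could count for either if counting ignored strand. The MAP kinase kinase gene sek-1 (R03G5.2) lies on X at 7816720 to 7820739. The p38 gene pmk-1 (B0218.3) lies on IV at 8148794 to 8150741, directly downstream of the other p38 genes pmk-3 and pmk-2 on the same strand. The output gene sysm-1 (T24B8.5), which encodes a small secreted protein with a ShK toxin-like domain and serves as a common reporter of PMK-1 activity, lies on II at 9082682 to 9083142. The remaining 3 output genes encode CUB-like domain proteins and lie on chromosome IV: C17H12.8 at 6818606 to 6820643, F08G5.6, also named irg-4, at 12435827 to 12438274, and K08D8.5 at 12910645 to 12912136. Coordinates are those of the deposited tables in build WBcel235, and spans include introns. For atf-7 the deposited gene length, 2591 bases, exceeds the deposited span, which therefore does not hold the whole gene. Ensembl release 115 places atf-7 at 4491627 to 4499045. None of the 9 gene models has the same start and end as in Ensembl release 115.

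Libraries held 25251114 to 47914774 reads. All 9 genes passed the filter on low counts in each comparison. The mbl-1 and N2 libraries labelled L4 had the marker levels of adults: 6 yolk protein genes summed to 100786 to 107931 CPM in mbl-1 and 101962 to 126014 CPM in N2, against 1622 to 7933 CPM in the transgenic L4 libraries. All CPM values are on 1 TMM scale. Among the 2-day adults, replicate 3 stood apart in both genotypes. Summed CPM of 14 intestinal markers was 10249, 8483 and 5384 in replicates 1 to 3 of mbl-1 and 5405, 6319 and 9809 in those of N2, and that of 12 oocyte markers was 2314, 3943 and 7924 in mbl-1 and 8291, 6632 and 3055 in N2. Replicate 3 of each genotype thus lay nearer to replicates 1 and 2 of the other, and results that rest on these libraries are given with and without them.

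Per kilobase of gene model, atf-7 was at a high and even level, and the cascade genes were at low ones. Group means of atf-7 spanned 51.9 to 80.3 CPM per kb over the 12 groups, on its deposited length of 2591 bases, which exceeds its deposited span. The kinase gene sek-1 spanned 9.29 to 31.3 CPM per kb and pmk-1 6.88 to 26.7, while nsy-1 spanned 2.95 to 11.2 and tir-1 3.24 to 12.5. All 4 had their lowest mean in 2-day adults of 0CUG strain 1 and their highest in an L4 group. The output genes moved over wider ranges: 1.91 to 261.5 CPM per kb for sysm-1, 45.2 to 274 for C17H12.8, 14.95 to 197 for F08G5.6, and 17.4 to 40.6 for K08D8.5. In 2-day adults of 0CUG strain 1, sysm-1 had its highest mean of the 12 groups and the other 3 output genes had their lowest.

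**Figure D1:**
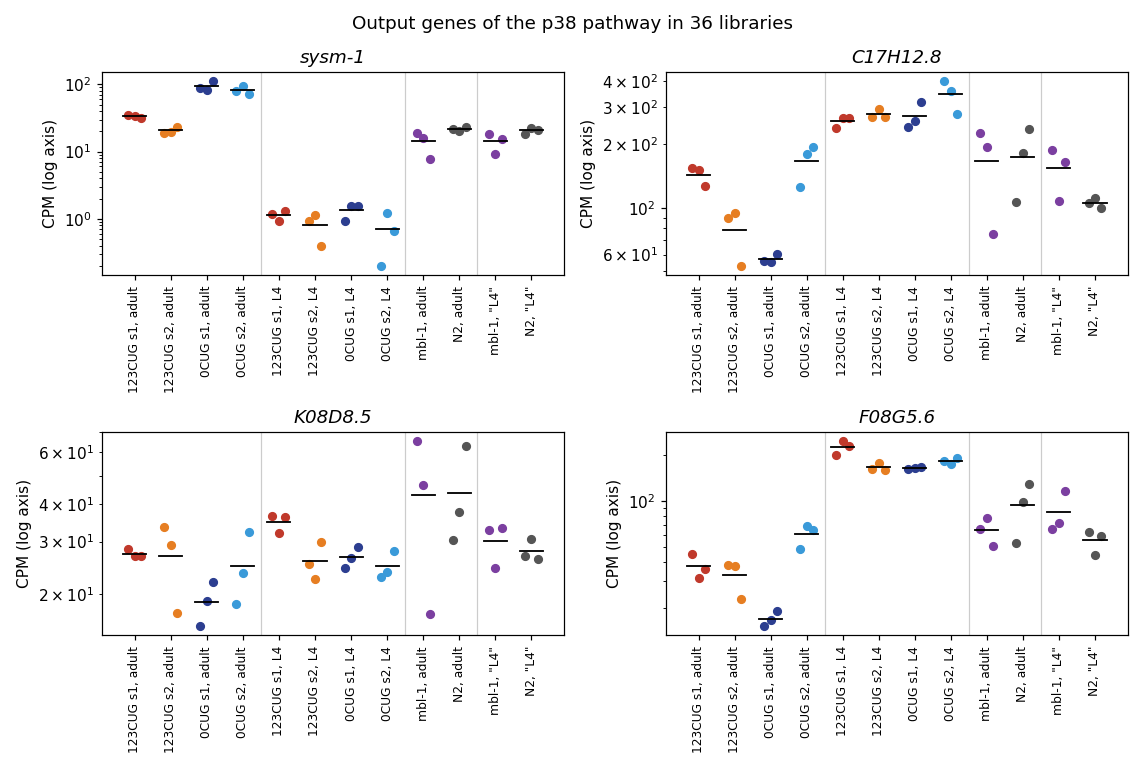
CPM on a log axis of the 4 output genes in each of 36 libraries, with the mean of each group as a black line; s1 and s2 are strains 1 and 2, and quotation marks stand around the L4 label of the mbl-1 and N2 libraries, which have adult marker levels. The transgenic L4 libraries hold sysm-1 at 0.199 to 1.56 CPM, below every other library, while they hold C17H12.8 and F08G5.6 at 238 to 400.0 and 160.4 to 247 CPM.

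In 2-day adults with 123 repeats, sysm-1 was lower than in 2-day adults with 0 repeats in every library, and the other 8 genes were not set apart in this way. It stood at 35.5, 34.4 and 32.02 CPM in 123CUG strain 1 and at 18.7, 19.7 and 23.4 CPM in 123CUG strain 2, against 89.7, 83.2 and 112 CPM in 0CUG strain 1 and 79.3, 93.5 and 72.7 CPM in 0CUG strain 2. Both 123CUG strains are low and both 0CUG strains are high, and the groups do not overlap. Means were 27.3 ± 7.56 CPM with 123 repeats and 88.4 ± 13.7 CPM with 0 repeats (SD, n = 6 each), a log2 difference of -1.73. By pair, the log2 difference was -1.49 for strain 1 against 0CUG strain 1, -1.25 against 0CUG strain 2, and, for strain 2, -2.21 against 0CUG strain 1 and -1.96 against 0CUG strain 2. Of 14070 genes tested, 1416 (10.1%) were called in this comparison at an adjusted p under 0.05, and 31 (0.22%) were called lower in all 4 pairs. The weakest of the 4 pair values, -1.25, is thus the one that decides the choice of sysm-1, and the next of the 9 genes, F08G5.6, was lower at that threshold in 2 of the 4 pairs. Across every alternative setting and left-out library the log2 difference of sysm-1 lay between -1.78 and -1.66. These refits reuse the libraries that chose sysm-1, so the range is a description and no test of the difference.

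The sysm-1 level of 123CUG strain 2 adults was close to that of the N2 adults, and that of 123CUG strain 1 adults was above it. N2 2-day adults had 21.6, 20.4 and 23.2 CPM of sysm-1, which lies within the range of 123CUG strain 2, 18.7 to 23.4 CPM. These N2 values lie below every library of 123CUG strain 1, at 32.02 to 35.5 CPM, and below every 0CUG library. The mbl-1 2-day adults had 18.70, 15.998 and 7.80 CPM, below the lowest 123CUG library at 18.75 CPM. Transgenic and non-transgenic libraries were not compared by a test, because the labels make no such comparison and strain, transgene and marker levels differ between them at the same time. In these whole animals, fewer cells of a type and less RNA per cell cannot be told apart, here and in every result below. The 14 intestinal markers summed to 3407 to 6100.4 CPM in the 123CUG adults, against 2846 to 3099.9 CPM in 0CUG strain 1 and 6699 to 8218 CPM in 0CUG strain 2, so the 123CUG libraries lie between both control strains in these markers while they lie below both in sysm-1. None of the 14 markers was called in the comparison of constructs, and none was at 0 in all 3 libraries of any group. In the same comparison 6 of 12 oocyte markers fell (median log2 -0.28), 5 of 10 body wall muscle markers rose and 1 fell (median log2 0.28), and 2 of 6 yolk genes rose (median log2 0.18). The part of these tissue markers in the sysm-1 difference was not tested.

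The other members showed no shared direction between the constructs in 2-day adults. Their log2 differences ranged from -0.16 for atf-7 to 0.33 for K08D8.5, and the 6 libraries of each construct overlapped for all 8. The cascade genes tir-1, nsy-1, sek-1 and pmk-1 differed by -0.02, 0.19, 0.02 and 0.03. These are averages over pairs of both signs. By pair, tir-1 ranged from -0.34 to 0.30, nsy-1 from -0.23 to 0.61, sek-1 from -0.27 to 0.32 and pmk-1 from -0.43 to 0.48. In contrast, atf-7 was below 0 in every pair, at -0.27 to -0.05, and K08D8.5 was above 0 in every pair, at 0.14 to 0.53. Among the output genes, the sign depended for 2 on which 0CUG strain served as the control. C17H12.8 in 123CUG strain 1 differed by 1.32 against 0CUG strain 1 and by -0.19 against 0CUG strain 2, and in 123CUG strain 2 by 0.46 and -1.06 in the same order of controls. F08G5.6 behaved alike, with 1.13 and -0.67 in 123CUG strain 1 and 0.95 and -0.85 in 123CUG strain 2. These pairs share their 0CUG libraries, so they are not independent of each other.

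In the average over strains 1 gene of the wider pathway was called, while the pairs differed by control strain. Of 27 other genes of p38 signalling and its neighbouring pathways, 1 was called, egl-30, which encodes a Gq alpha subunit (log2 0.30, SE 0.0786, edgeR adjusted p = 0.0168), and the median log2 difference of the list was 0.06, against 0.03 over all genes. Against 0CUG strain 1, 12 of the 27 rose and none fell in 123CUG strain 1 (median log2 0.48), and 8 rose and 1 fell in 123CUG strain 2 (0.24). Against 0CUG strain 2, 1 rose and 7 fell in 123CUG strain 1 (median log2 -0.16), and none rose and 8 fell in 123CUG strain 2 (-0.43). Intestinal markers went the same ways, with 12 and 10 of 14 rising against 0CUG strain 1, and 3 and 8 falling against 0CUG strain 2, for 123CUG strains 1 and 2 in that order. Over all 14070 genes the median log2 difference in these pairs was 0.01 to 0.03. In the same order, 5405 and 3685 genes had an unadjusted edgeR p under 0.05 against 0CUG strain 1, and 4037 and 4734 against 0CUG strain 2. That threshold is looser, and the share of all genes called per pair is not given, so the list counts are a description. Of 12 other output genes tested out of 13 listed, 3 rose and none fell. catp-3, which encodes a cation-transporting ATPase, rose to 65.9, 68.2 and 74.96 CPM in 123CUG strain 1 and 53.9, 52.96 and 60.1 CPM in 123CUG strain 2, against 25.1, 39.1 and 28.1 CPM in 0CUG strain 1 and 21.7, 36.9 and 45.8 CPM in 0CUG strain 2 (log2 0.94, SE 0.141, edgeR adjusted p = 0.000391). All 6 of its 123CUG libraries are above all 6 of its 0CUG libraries. The lectin-like gene clec-4 rose too (log2 0.64, SE 0.131, edgeR adjusted p = 0.00274), as did the lysozyme gene lys-2 (log2 0.37, SE 0.101, edgeR adjusted p = 0.0215). In both lists 4 genes were called, and leaving out 123CUG strain 2 replicate 3 gave 10. Of 14 epidermal antimicrobial peptide genes tested, some of which, such as nlp-29, are induced through TIR-1 and PMK-1, nlp-34 fell (log2 -1.20, SE 0.285, edgeR adjusted p = 0.00937) and cnc-3 rose (log2 0.63, SE 0.14, edgeR adjusted p = 0.00569).

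Strains of 1 construct also differed from each other as adults, and in the 0CUG controls this reached 4 of the 8 members tested. In 0CUG strain 1 against 0CUG strain 2, 4 members fell and none rose, where 44.6% of all genes were called and 22.3% fell. The share of members called is thus near that of all genes. The output gene F08G5.6 stood at 15.3, 16.9 and 19.3 CPM in strain 1, against 49.02, 69.4 and 64.6 CPM in strain 2 (log2 -1.80, SE 0.187, edgeR adjusted p = 5.63e-07). C17H12.8 stood at 55.6, 55.2 and 60.4 CPM in strain 1, against 126, 181 and 194 CPM in strain 2 (log2 -1.51, SE 0.187, edgeR adjusted p = 1.65e-05). Every strain 1 library is below every strain 2 library for both genes. In the cascade, pmk-1 fell to 7.34, 10.02 and 6.27 CPM in strain 1, against 11.7, 17.02 and 15.4 CPM in strain 2 (log2 -0.87, SE 0.259, edgeR adjusted p = 0.0101), and nsy-1 to 17.6, 15.1 and 11.9 CPM, against 24.1, 22.3 and 23.3 CPM (log2 -0.62, SE 0.168, edgeR adjusted p = 0.00552). These groups do not overlap either, although the call of pmk-1 was lost without 0CUG strain 1 replicate 3 (edgeR adjusted p = 0.0508) or without 0CUG strain 2 replicate 2 (edgeR adjusted p = 0.0518). The values of tir-1 (-0.41), sek-1 (-0.37) and K08D8.5 (-0.37) were below 0 without a call, and all 3 were called in a fit without 123CUG strain 2 replicate 3, a library that shares the estimate of spread, which made 7 members in all. Leaving out 0CUG strain 2 replicate 1 also brought calls for tir-1 (log2 -0.64, edgeR adjusted p = 0.00794) and sek-1 (log2 -0.55, edgeR adjusted p = 0.0144). Over the fits with a library left out, 4618 to 6586 genes were called in all, against 6276 in the main fit. atf-7 differed by 0.04 with no call. sysm-1, whose adult libraries took part in its choice, is described only and had a log2 difference of 0.25.

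Intestinal markers fell beside these 4 genes. Of 14 markers 13 fell in 0CUG strain 1 against strain 2, with a median log2 difference of -1.25, and their sum was 2846, 2848 and 3099.9 CPM in strain 1, against 6699, 8218 and 7675 CPM in strain 2. All 6 yolk genes, which are expressed in the intestine, also fell (median log2 -1.27), and 9 of 12 oocyte markers rose (median log2 0.33). The part of these tissue markers in the lower F08G5.6 and C17H12.8 was not tested. Among the 27 other pathway genes 16 fell and 1 rose, the largest called fall being that of the intestinal GATA factor gene elt-7 (log2 -1.79, SE 0.282, edgeR adjusted p = 4.56e-05), which is itself on the marker list. Among 12 other output genes 3 rose and 3 fell. dod-24, a CUB-like gene, rose (log2 1.68, SE 0.225, edgeR adjusted p = 1.21e-05), as did gst-4, a glutathione S-transferase gene (log2 1.19, SE 0.191, edgeR adjusted p = 5.12e-05), and clec-4 (log2 0.89, SE 0.187, edgeR adjusted p = 0.000725), while irg-6 fell (log2 -2.26, SE 0.704, edgeR adjusted p = 0.0131). Of the epidermal peptide genes 4 of 14 fell, with cnc-7 at the largest fall (log2 -2.16, SE 0.322, edgeR adjusted p = 3.9e-05), and none rose.

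**Figure D2:**
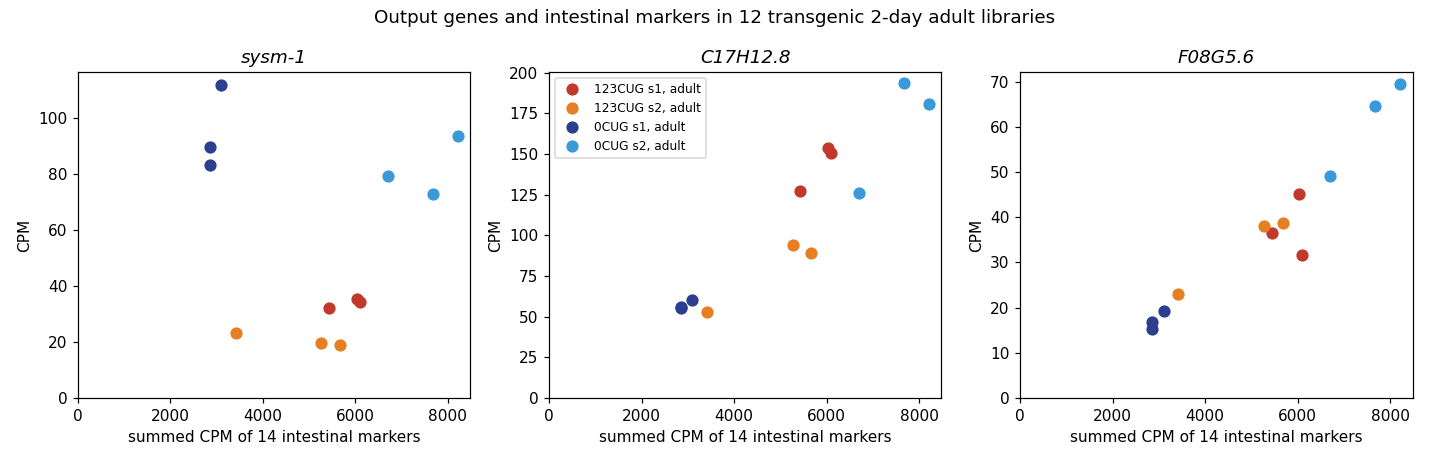
CPM of 3 output genes against the summed CPM of 14 intestinal markers in the 12 transgenic 2-day adult libraries, both axes linear and starting at 0. On average C17H12.8 and F08G5.6 are lowest in 0CUG strain 1 (s1) and highest in 0CUG strain 2 (s2), the strains with the lowest and highest marker sums, while sysm-1 is high in both 0CUG strains and low in both 123CUG strains.

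The 123CUG strains differed from each other in the output gene C17H12.8 as adults. C17H12.8 stood at 154, 151 and 127 CPM in strain 1, against 89.1, 94.3 and 53.000 CPM in strain 2 (log2 0.86, SE 0.184, edgeR adjusted p = 0.011), a call that was lost without 123CUG strain 1 replicate 2 (edgeR adjusted p = 0.0517). Its strains do not overlap. This call, 1 of the 8 members tested, stands beside 5.39% of all genes called, and 3.46% called higher. As a description, sysm-1 averaged 33.97 ± 1.76 CPM in strain 1 and 20.6 ± 2.43 CPM in strain 2 (SD, n = 3 each), a log2 difference of 0.71, with no overlap. No cascade gene was called, with log2 differences of -0.04 for pmk-1 to 0.23 for tir-1. Of the 27 other pathway genes 1 was called: egl-8, which encodes a phospholipase C beta upstream of the p38 cascade, stood at 158, 165 and 161 CPM in strain 1, against 53.5, 52.8 and 38.7 CPM in strain 2 (log2 1.73, SE 0.114, edgeR adjusted p = 1.53e-09). Both 0CUG strains lay between, at 92.9 ± 7.91 and 66.7 ± 5.39 CPM (SD, n = 3 each). Among the epidermal peptide genes, cnc-4 rose (log2 1.46, SE 0.21, edgeR adjusted p = 0.000104), and cnc-1 rose at a very low level (1.56 ± 0.752 CPM in strain 1 and 0.0435 ± 0.0382 CPM in strain 2). Body wall muscle markers were higher in strain 1, with 8 of 10 called, and 1 of 14 intestinal markers was called. The part of these markers in C17H12.8 was not tested.

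At L4, 123CUG against 0CUG showed a small rise of atf-7 that came from 1 strain, and sysm-1 showed no difference that its depth could resolve. In all, 2 of 9 members were called, both higher, where 14.4% of all genes were called and 5.09% rose. atf-7 stood at 222, 176 and 175 CPM in 123CUG strain 1 and 145, 137 and 138 CPM in 123CUG strain 2, against 141, 139.8 and 141 CPM in 0CUG strain 1 and 121, 127 and 155 CPM in 0CUG strain 2 (log2 0.28, SE 0.0733, edgeR adjusted p = 0.0122). The 123CUG strain 1 libraries are the high ones, and those of 123CUG strain 2 lie among the controls. By pair, atf-7 differed by 0.54 and 0.53 in strain 1 and by 0.03 and 0.03 in strain 2, in each case against 0CUG strains 1 and 2. The direct test of strain 1 against strain 2 called atf-7 higher (log2 0.51, SE 0.104, edgeR adjusted p = 0.00333). The call between constructs was lost without 123CUG strain 1 replicate 1 (edgeR adjusted p = 0.0632) or 0CUG strain 2 replicate 2 (edgeR adjusted p = 0.059). Replicate 1 of 123CUG strain 1, the library with the highest atf-7, also held the highest share of ribosomal RNA reads, 9.97%, against 1.28% to 3.15% in the other transgenic L4 libraries, and without it the log2 difference was 0.20. The part of that share in the result was not tested.

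F08G5.6 followed the same course. It stood at 200.1, 247 and 229 CPM in 123CUG strain 1 and 163, 179 and 160.4 CPM in 123CUG strain 2, against 163, 165 and 168 CPM in 0CUG strain 1 and 183, 177 and 193 CPM in 0CUG strain 2 (log2 0.18, SE 0.0603, edgeR adjusted p = 0.0474). Strain 1 again holds the highest libraries, and strain 2 overlaps with the controls. This call lay at the threshold: it was lost with no filter on low counts, in the fit of 24 libraries and without any of 10 of the 12 libraries, at edgeR adjusted p of 0.057 to 0.181 for the left-out libraries. Between the 123CUG strains, F08G5.6 was higher in strain 1 (log2 0.49, SE 0.0855, edgeR adjusted p = 0.000771), and so was K08D8.5, with 36.6, 31.9 and 36.3 CPM in strain 1 and 25.2, 22.4 and 29.8 CPM in strain 2 (log2 0.50, SE 0.125, edgeR adjusted p = 0.0144). With atf-7 that makes 3 of 9 members, beside 9.63% of all genes called and 4.9% called higher. In the fit of 24 libraries only atf-7 was called of these 3, with edgeR adjusted p of 0.197 for K08D8.5 and 0.0906 for F08G5.6, and K08D8.5 was also lost without 123CUG strain 1 replicate 1 or strain 2 replicate 1 or 2 (edgeR adjusted p = 0.0631, 0.0581 and 0.0979). Neither intestinal nor epidermal markers moved as a list between these strains, with 2 of 14 called higher and 1 of 8 called lower, while 6 of 12 oocyte markers were lower in strain 1.

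For sysm-1, the L4 libraries held 6 to 82 reads each, or 0.388 to 1.31 CPM with 123 repeats and 0.199 to 1.56 CPM with 0 repeats. The groups overlap, and the log2 difference of 0.04 has an SE of 0.431 (edgeR adjusted p = 0.974); the L4 depth gives far less precision than that of adults. Cascade genes differed by 0.01 for pmk-1 to 0.21 for nsy-1 with no call, and nsy-1 was called in a fit without 123CUG strain 1 replicate 3 (log2 0.27, edgeR adjusted p = 0.0202). Without 0CUG strain 2 replicate 3, 4 members were called, with C17H12.8 lower (log2 -0.24) and K08D8.5 higher (log2 0.30). Over the fits with a library left out, 1734 to 2838 genes were called in all, against 2342 in the main fit. Between the 0CUG strains at L4 no member was called by edgeR, where 1.18% of all genes were. An unadjusted p under 0.05 was found for 3 members, C17H12.8, F08G5.6 and sek-1, and DESeq2 called C17H12.8 (log2 -0.42, DESeq2 adjusted p = 0.0313). C17H12.8 was also called by edgeR with no filter on low counts (adjusted p = 0.00434) and without 0CUG strain 1 replicate 3 (0.0238) or strain 2 replicate 3 (0.00768).

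In the wider pathway at L4, 2 of 27 genes rose and 1 fell, with a median log2 difference of 0.10 against 0.02 over all genes. By pair, 6 of the 27 rose in 123CUG strain 1 against either 0CUG strain, and 1 and 0 rose in 123CUG strain 2 against 0CUG strains 1 and 2. Of all 16210 genes, 4856 and 4276 had an unadjusted edgeR p under 0.05 in those pairs of strain 1, and 3498 and 2134 in those of strain 2. That threshold is looser than the one for the list, so these pair counts are a description. dcar-1, the receptor upstream of the epidermal p38 response, rose (log2 0.33, SE 0.0757, edgeR adjusted p = 0.00533), as did the bZIP factor gene cebp-1 (log2 0.46, SE 0.108, edgeR adjusted p = 0.00581), and the intestinal GATA factor gene elt-2 fell (log2 -0.24, SE 0.0702, edgeR adjusted p = 0.0265). Of 12 other output genes, catp-3 rose (log2 0.66, SE 0.142, edgeR adjusted p = 0.00516), as did dod-24 (log2 0.50, SE 0.0919, edgeR adjusted p = 0.000772) and C32H11.4 (log2 0.34, SE 0.0908, edgeR adjusted p = 0.0136), and the lectin-like gene clec-85 fell (log2 -0.78, SE 0.0942, edgeR adjusted p = 5.6e-06). For catp-3, strain 1 again carried the call: it differed from both 0CUG strains there (0.79 and 1.30), whereas 123CUG strain 2 was not called against either (0.03 and 0.54), and the test of strain 1 against strain 2 gave log2 0.76 (edgeR adjusted p = 0.0272). Of 13 epidermal peptide genes 5 rose, among them nlp-29 (log2 0.59, SE 0.101, edgeR adjusted p = 0.000382) and cnc-3 (log2 0.50, SE 0.151, edgeR adjusted p = 0.042), and nlp-27 fell (log2 -0.36, SE 0.0769, edgeR adjusted p = 0.00253). Beside these, 3 of 14 intestinal markers and all 6 yolk genes were lower with 123 repeats (median log2 -1.40 for yolk), and their part in the result was not tested.

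**Figure D3:**
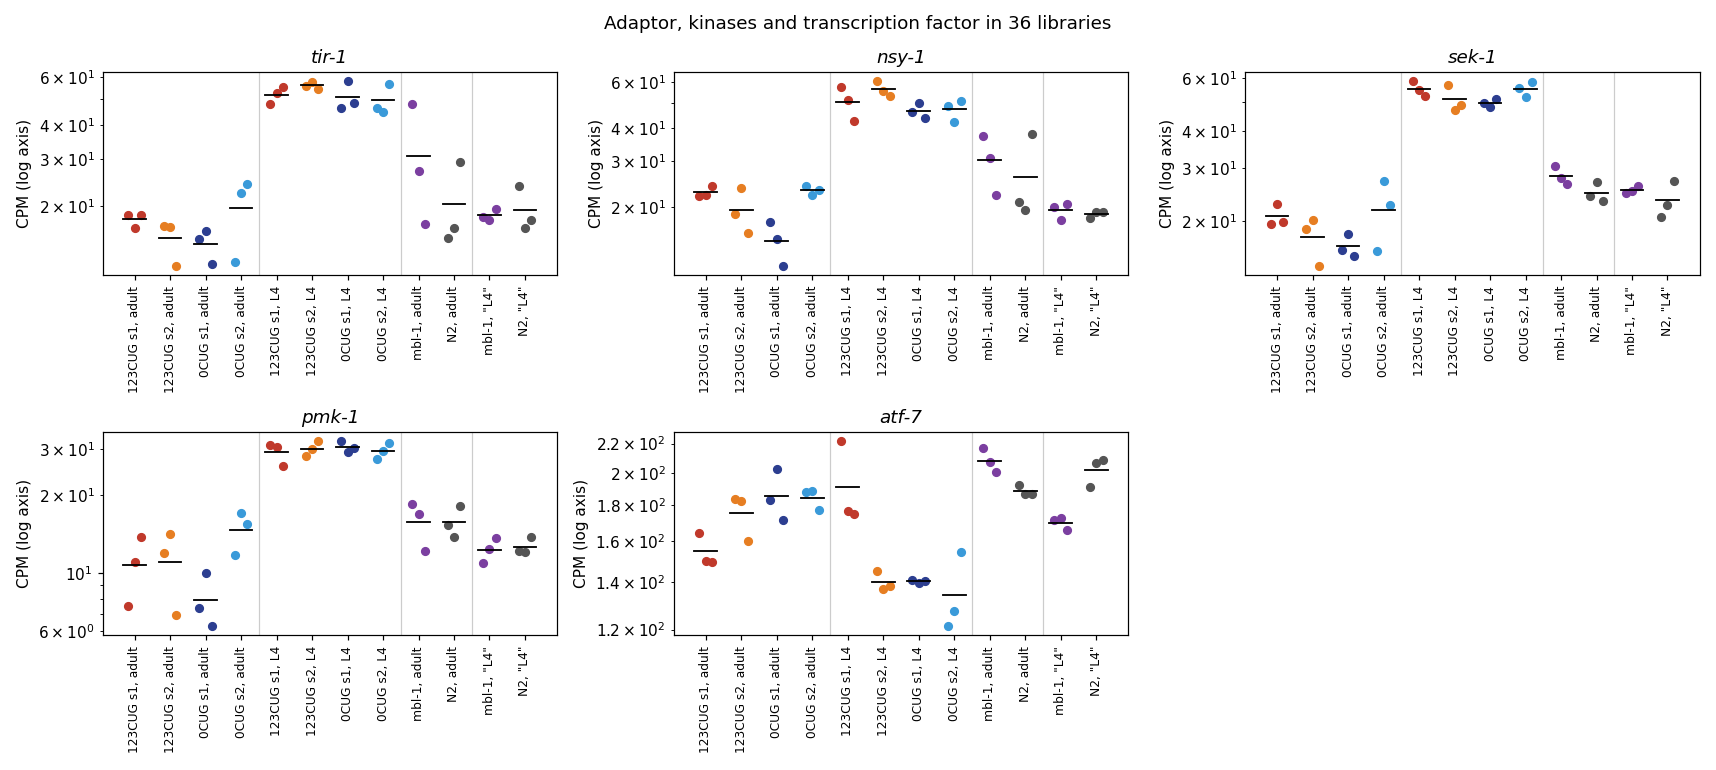
CPM on a log axis of the adaptor, kinase and transcription factor genes in each of 36 libraries, drawn as for the output genes. The 4 cascade genes are higher in every transgenic L4 library than in any transgenic adult library, and atf-7 stays at 121 to 222 CPM in all libraries. How many of all genes separate by stage in this way was not counted.

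Between transgenic 2-day adults and L4 animals the cascade fell as a group while sysm-1 had far more reads. Stage changed most of the transcriptome, with 82.7% of 17248 genes called in 0CUG (34.4% rose and 48.3% fell) and 82.6% in 123CUG (47.1% fell), and the median log2 difference over all genes was -0.48 in 0CUG and -0.41 in 123CUG. Against that background 7 of the 8 members tested were called in 0CUG and 6 of 8 in 123CUG. Both shares are near those of all genes, so the counts of calls do not set the members apart. tir-1 fell to 16.6 ± 2.41 CPM in 123CUG adults, against 53.8 ± 3.46 CPM in 123CUG L4 animals (SD, n = 6 each; log2 -1.70, SE 0.126, edgeR adjusted p = 2.02e-12). In 0CUG it fell to 17.1 ± 5.04 CPM in adults, against 50.02 ± 5.84 CPM at L4 (SD, n = 6 each; log2 -1.56, SE 0.125, edgeR adjusted p = 9.99e-12). nsy-1, sek-1 and pmk-1 fell by similar amounts, with log2 differences of -1.34, -1.47 and -1.44 in 123CUG and -1.34, -1.47 and -1.48 in 0CUG, and edgeR adjusted p of at most 3.28e-09. For these 4 genes no adult library reached the level of any L4 library of the same construct. The share of all genes that separate by stage in this way was not counted, so this does not set the cascade apart.

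atf-7 rose in 0CUG, to 185 ± 10.9 CPM in adults, against 137 ± 11.7 CPM at L4 (SD, n = 6 each; log2 0.43, SE 0.071, edgeR adjusted p = 4.49e-06). In 123CUG it was not called (log2 0.01, SE 0.0709, edgeR adjusted p = 0.922), an average of 2 strains whose means moved in opposite directions. In 123CUG strain 1 atf-7 stood at 155 ± 8.47 CPM in adults, against 191 ± 26.6 CPM at L4. In 123CUG strain 2 it stood at 175 ± 13.4 CPM in adults, against 140 ± 4.34 CPM at L4 (SD, n = 3 each). Adult and L4 libraries do not overlap in either strain, and the strains were not tested singly. Whether the stage change of atf-7 differs between the constructs was not tested. The output genes divided. F08G5.6 fell to 35.4 ± 7.52 CPM in 123CUG adults, against 197 ± 35.7 CPM at L4 (SD, n = 6 each; log2 -2.46, SE 0.114, edgeR adjusted p = 2.19e-16), and by 2.43 on the log2 scale in 0CUG (edgeR adjusted p = 2.92e-16). C17H12.8 fell in 123CUG (log2 -1.33, SE 0.124, edgeR adjusted p = 4.92e-10) and in 0CUG (log2 -1.65, SE 0.125, edgeR adjusted p = 1.01e-11). K08D8.5 was not called in 123CUG (log2 -0.15, SE 0.137, edgeR adjusted p = 0.302) or in 0CUG (log2 -0.25, SE 0.138, edgeR adjusted p = 0.0969), except in 0CUG without 0CUG strain 2 adult replicate 3 (log2 -0.36, edgeR adjusted p = 0.019). sysm-1, whose adult libraries took part in its choice, is described only: it averaged 27.3 ± 7.56 CPM in 123CUG adults and 0.983 ± 0.33 CPM at L4 (log2 4.75), and 88.4 ± 13.7 CPM in 0CUG adults and 1.02 ± 0.536 CPM at L4 (log2 6.50; SD, n = 6 each). It thus had the opposite sign to the genes of its own cascade and to the CUB-like output genes called here.

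Other pathway genes mostly fell with age, 21 of 27 falling and 5 rising in both 123CUG and 0CUG, with median log2 differences of -1.16 and -1.05. Of 12 other output genes 7 fell in each construct, and 3 rose in 123CUG and 2 in 0CUG. irg-5, a CUB-like gene, fell in 123CUG (log2 -3.12, SE 0.302, edgeR adjusted p = 7.56e-09) and in 0CUG (log2 -2.93, SE 0.295, edgeR adjusted p = 1.45e-08), whereas clec-85 rose in 123CUG (log2 3.05, SE 0.111, edgeR adjusted p = 9.84e-19) and in 0CUG (log2 2.31, SE 0.107, edgeR adjusted p = 1.3e-16). Among the epidermal peptide genes, nlp-30 and cnc-10 fell (log2 -4.76 and -3.71 in 123CUG, -4.02 and -2.98 in 0CUG) and cnc-2 rose (log2 4.97 in 123CUG and 4.04 in 0CUG), all at edgeR adjusted p of at most 1.86e-12. cnc-7 had 0 reads in every 123CUG L4 library and 5.62 to 13.1 CPM in 123CUG adults. Tissue markers moved with stage as well: 12 of 14 intestinal markers fell in each construct (median log2 -1.23 in 123CUG and -1.53 in 0CUG), all 10 muscle markers fell, and all 12 oocyte markers rose (median log2 5.72 and 6.35). The part of this shift in tissue RNA in the fall of the cascade was not tested.

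**Figure D4:**
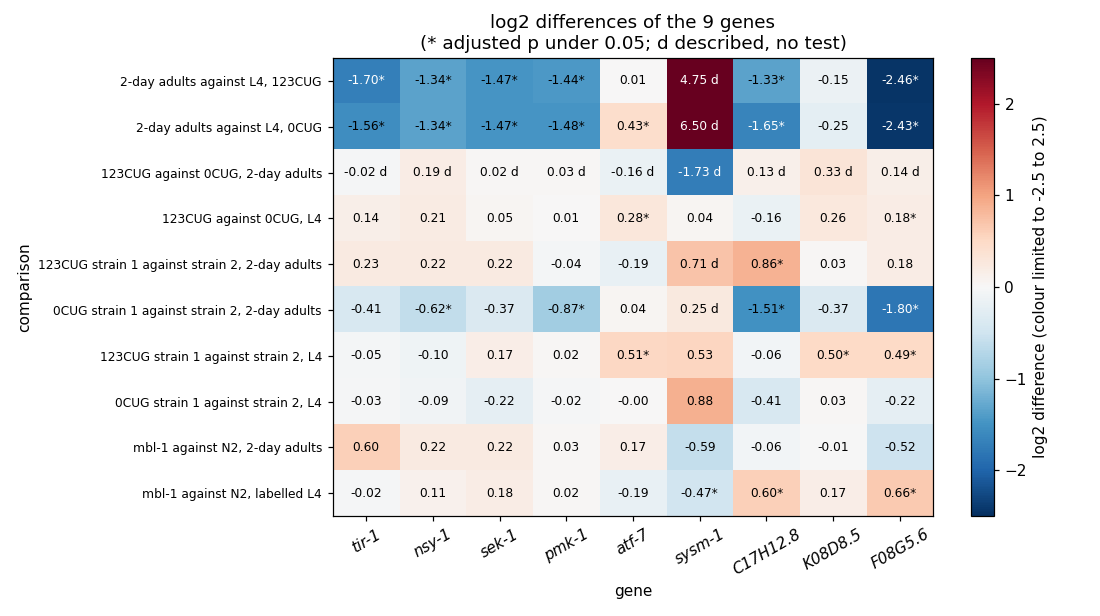
Fitted log2 differences of the 9 genes (columns) in 10 comparisons (rows), the group named first being higher where the value is above 0; stars mark an edgeR adjusted p under 0.05, d marks values that are described without a test, and colours stop at -2.5 and 2.5. The stage rows hold the largest values, the cascade genes change with stage together, and sysm-1 is the one gene of the 9 with a value below -1 between constructs in 2-day adults.

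In mbl-1 against N2 libraries labelled L4, the cascade genes did not pass the test, 2 output genes rose and sysm-1 fell. These are 3 of 9 members, where 51.4% of 13264 genes were called, 29.7% higher and 21.7% lower, so the share of members called is below the background. C17H12.8 stood at 189, 108 and 165 CPM in mbl-1, against 105, 112 and 99.6 CPM in N2 (log2 0.60, SE 0.153, edgeR adjusted p = 0.00583), and replicate 2 of mbl-1 falls within the range of N2. F08G5.6 stood at 66.5, 72.2 and 117 CPM in mbl-1, against 62.8, 44.7 and 59.9 CPM in N2 (log2 0.66, SE 0.21, edgeR adjusted p = 0.0267), and its groups do not overlap. sysm-1 stood at 18.1, 9.11 and 15.6 CPM in mbl-1, against 18.4, 22.8 and 20.6 CPM in N2 (log2 -0.47, SE 0.186, edgeR adjusted p = 0.0426). Its highest mbl-1 library and its lowest N2 library nearly meet, and mbl-1 replicate 2 is the low one. None of the 3 calls held in a fit of all 12 mbl-1 and N2 libraries, where the edgeR adjusted p was 0.263 for sysm-1, 0.27 for C17H12.8 and 0.174 for F08G5.6 and the log2 differences were -0.48, 0.59 and 0.66. Leaving out any library of N2, or mbl-1 replicate 2 or 3, ended the call of sysm-1 (edgeR adjusted p = 0.0803 to 0.139), and without mbl-1 replicate 2 its log2 difference was -0.24. The call of F08G5.6 was lost with DESeq2 (adjusted p = 0.0822) and without N2 replicate 2 or 3 or mbl-1 replicate 2 (edgeR adjusted p = 0.051, 0.0798 and 0.0785), and its log2 difference was 0.39 without mbl-1 replicate 3. The call of C17H12.8 was lost without mbl-1 replicate 3 (edgeR adjusted p = 0.1).

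atf-7 stood at 172, 173 and 166 CPM in mbl-1, against 191, 206 and 209 CPM in N2 (log2 -0.19, SE 0.0878, edgeR adjusted p = 0.0785). The groups do not overlap, and the gene was called lower with DESeq2 (log2 -0.25, DESeq2 adjusted p = 0.0175), with RLE size factors (log2 -0.24, edgeR adjusted p = 0.0368), and when mbl-1 replicate 2 was left out (edgeR adjusted p = 0.049). The cascade genes had log2 differences of -0.02 for tir-1, 0.02 for pmk-1, 0.11 for nsy-1 and 0.18 for sek-1, and their groups overlap. K08D8.5 did not pass the test either (log2 0.17, SE 0.125, edgeR adjusted p = 0.261), although without mbl-1 replicate 2 it was called higher (log2 0.30, edgeR adjusted p = 0.0247). Its neighbour irg-6, the next gene at higher coordinates, rose (log2 1.85, SE 0.226, edgeR adjusted p = 1.2e-05), to 6.41, 3.91 and 6.60 CPM in mbl-1, against 1.75, 1.66 and 1.42 CPM in N2.

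In the same comparison 18 of 27 other pathway genes rose and 1 fell, with a median log2 difference of 0.54 against 0.03 over all genes, and the gene that fell was skn-1, the Nrf-type stress factor that PMK-1 also phosphorylates (log2 -0.31, SE 0.0949, edgeR adjusted p = 0.0132). Of 12 other output genes 7 rose and 1 fell. irg-5 stood at 17.8, 8.17 and 22.3 CPM in mbl-1, against 3.36, 2.69 and 4.18 CPM in N2 (log2 2.29, SE 0.333, edgeR adjusted p = 0.000453), and dod-22, another CUB-like gene, rose as well (log2 1.68, SE 0.201, edgeR adjusted p = 9.92e-06). catp-3 stood at 13.4, 9.79 and 10.7 CPM in mbl-1, against 60.3, 58.4 and 43.8 CPM in N2 (log2 -2.21, SE 0.148, edgeR adjusted p = 5.17e-08). Its groups lie far apart. Of 12 epidermal peptide genes 7 rose and 1, cnc-2, fell (log2 -0.59, SE 0.166, edgeR adjusted p = 0.00815). In the 12-library fit, 2 genes of the pathway and output lists were called in place of 27, and 996 genes in all in place of 6821.

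Markers of several tissues moved with mbl-1 as well. Of 14 intestinal markers 11 rose (median log2 0.58; summed CPM 6738, 5922 and 8108 in mbl-1 and 4441, 5010.1 and 4891 in N2), all 10 body wall muscle markers rose (median log2 1.57), 7 of 10 neuronal markers rose and 11 of 12 oocyte markers fell (median log2 -0.64). No marker of the intestinal, muscle or oocyte list was at 0 in all 3 libraries of either group. The part of these shifts in the members' differences was not tested.

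In 2-day adults of mbl-1 against N2, edgeR called none of 13286 genes (0%), while 695 had an unadjusted p under 0.05 and DESeq2 called 107. No member was called or had an unadjusted p under 0.05. sysm-1 stood at 18.7, 15.998 and 7.80 CPM in mbl-1, against 21.6, 20.4 and 23.2 CPM in N2 (log2 -0.59, SE 0.332, edgeR adjusted p = 0.91), and atf-7 at 217, 207 and 200.3 CPM, against 192, 187 and 187 CPM (log2 0.17, SE 0.12, edgeR adjusted p = 0.91). For both genes the groups do not overlap, sysm-1 being lower and atf-7 higher in every mbl-1 library. For several other genes replicate 3 broke the order of the groups. tir-1 stood at 47.7, 26.9 and 17.2 CPM in mbl-1, against 15.3, 16.6 and 29.1 CPM in N2, and K08D8.5 at 65.3, 46.6 and 17.1 CPM, against 30.4, 37.8 and 62.95 CPM. C17H12.8 stood at 228, 195 and 75.4 CPM in mbl-1, against 107, 183 and 236 CPM in N2. In each of these genes mbl-1 replicate 3 is the lowest mbl-1 library and N2 replicate 3 the highest N2 library. Without replicate 3 of both genotypes, 4416 genes were called, and of the members tir-1 (log2 1.28, edgeR adjusted p = 0.0152), nsy-1 (log2 0.81, edgeR adjusted p = 0.0133) and K08D8.5 (log2 0.77, edgeR adjusted p = 0.0271) were higher in mbl-1. In all 6 libraries K08D8.5 had a log2 difference of -0.01. Leaving out those libraries changed sysm-1 to a log2 difference of -0.21 (edgeR adjusted p = 0.358), with 2 libraries per group.

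The mbl-1 effect was not shown to differ between the labels for any member. The test of that difference called 1 of 14027 genes (0.00713%), and the member with the lowest adjusted p was atf-7 (log2 0.36, SE 0.122, edgeR adjusted p = 0.378), followed by F08G5.6 (log2 -1.19, SE 0.449, edgeR adjusted p = 0.425). Without replicate 3 of both 2-day adult groups, tir-1 (log2 1.30, edgeR adjusted p = 0.0173) and nsy-1 (log2 0.71, edgeR adjusted p = 0.0278) were called in it.

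Among 9658 genes with a mean of at least 5 CPM, the pattern of sysm-1 over all 36 libraries was most like that of ugt-43, a glucuronosyltransferase-family gene (Pearson r = 0.960 of log2(CPM + 0.5)), flp-6, a neuropeptide gene (0.953), yju-2 (0.947), the innexin gene inx-9 (0.945) and mdt-28 (F28F8.5, 0.944). These values rest largely on the transgenic L4 libraries, where sysm-1 is lowest, and libraries of a group are not independent points. With the mean of each stage label removed within transgenic and non-transgenic libraries, the highest were scrm-4 (0.703), abhd-5.2 (0.628), tcl-2 (0.627), drd-10 (0.624) and ugt-43 (0.620), so ugt-43 is the gene on both lists. Removing these means leaves in place the adult difference between constructs on which sysm-1 was chosen. Both lists are therefore a description, and the part of that difference in the ranking was not tested. Within the pathway, sysm-1 had r of -0.86 with tir-1, -0.86 with nsy-1, -0.93 with sek-1 and -0.87 with pmk-1 over the 36 libraries. With the stage means removed the same 4 values were 0.07, -0.14, -0.09 and -0.02, and those with C17H12.8, K08D8.5 and F08G5.6 were 0.06, 0.02 and -0.04. All these r values include the adult libraries that took part in the choice of sysm-1, so they too are a description.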

How the data were processed

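Whole-animal RNA was sequenced in 36 libraries, 3 for each of 12 groups given by genotype and stage in the labels, which do not say whether replicates came from separate cultures, so p-values measure the spread between libraries, which may be technical. The authors deposited read counts per gene as unscaled whole numbers in 10 tables of 19268 to 21488 genes, and per the submitters' processing notes HISAT2, DESeq2 and build WBcel235 were used. For the counting tool, its use of strand and the annotation release, the entry is "not given in the sources used here". Joining the tables gave 24931 named genes. A further 500 loci without a name, with 0.0201% to 0.0643% of a library's reads, were left out. The values that recur between tables were equal in 465954 cases and differed in 0. Symbols came from Ensembl release 115 (24466 matched, 465 not). Totals were 25251114 to 47914774 reads, which sets the precision of low genes, and ribosomal RNA took 0.219% to 9.97%. The 36 pairs of libraries within groups all differed by more than sampling noise (lowest median chi-square per gene 1.85, where noise gives 0.455).

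Tests used edgeR 4.0.16 in R 4.3.3 (quasi-likelihood F test, TMM scaling, filterByExpr, robust dispersion) with p-values adjusted by Benjamini-Hochberg across every gene in the fit, and "called" stands for an adjusted p under 0.05. "edgeR adjusted p" always means this test. mbl-1 against N2 used 6 libraries per label, 123CUG against 0CUG and the strain comparisons used 12 per stage with a coefficient per strain, the stage comparisons used 24, and the difference of the mbl-1 effect between labels used 12. A value for a construct averages the log2 values of its strains. SE was derived from the F statistic. CPM was computed on 1 TMM scale over 36 libraries, and CPM per kb uses the deposited gene length. The scripts were tested on simulated counts. Main fits did not pair libraries by replicate number. Same-numbered deviations correlated at -0.86 to 0.60, and in no set was every pair above 0.1. A library correlated best with its own number in 17 of 36 comparisons in transgenic 2-day adults and 10 of 36 at transgenic L4. For mbl-1 and N2 this was 4 of 6 in libraries labelled L4 and 0 of 6 in 2-day adults. Pairing of only some libraries was not tested.

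The 9 genes and all lists were chosen with earlier results of these data known. All 9 are named in every comparison. From the other pathway, output and epidermal peptide lists the rule named up to 3 called rises and 3 called falls per comparison with the largest log2 difference and a mean of 1 CPM or more in the higher group. Other list genes were named after their values were seen. Alternatives were DESeq2 1.42.0, RLE size factors, no filter on low counts, a replicate block, larger fits and each library left out.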

Additional observations from a re-analysis of the deposited data

How the results depend on the processing

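Of the 1755 repeats of single-gene values under an alternative, 1694 kept their side of the threshold, where there was a test, 36 lost a call, and 24 gained one. Of the 1694, 95 changed sign, all without a call in either fit. In 1 case the sign changed together with a gained call: K08D8.5 in 2-day adults of mbl-1 against N2, at log2 0.77 without replicate 3 of both genotypes. That setting gave 3 members and 24 list genes called in place of 0 and 0, and 2 members in place of 0 for the difference of the mbl-1 effect between labels. With all 6 of these libraries, DESeq2 called 1 list gene in place of 0. The fit of all 12 mbl-1 and N2 libraries gave 0 members and 2 list genes for the libraries labelled L4, in place of 3 and 27. For 123CUG against 0CUG at L4, 1 member was called in place of 2 with no filter and in the fit of 24 libraries, which gave 4 list genes in place of 7. In 2-day adults the list genes called were 7 with DESeq2, 12 with no filter and 7 in the 24-library fit, in place of 4. Between strains at L4, 0CUG had 1 member in place of 0 with DESeq2 and with no filter, and 123CUG had 1 in place of 3 in the 24-library fit. The causes were not tested.

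Leaving out 1 library gave 1 to 3 members for mbl-1 labelled L4, 0 to 4 members and 5 to 12 list genes for 123CUG at L4, 3 to 10 list genes for 123CUG in 2-day adults, 0 to 1 members between 0CUG strains at L4, 3 to 7 between 0CUG strains and 0 to 1 between 123CUG strains in 2-day adults. The stage counts of 7 and 6 members stayed at 7 to 8 and at 6.

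The number of all genes called moved by over 1.5 times for mbl-1 labelled L4 (6821, and 996 in the 12-library fit), mbl-1 2-day adults (0, 107 with DESeq2 and 4416 without both replicates 3), the difference between labels (1, 143 with DESeq2, 0 with the replicate block, 64 without N2 adult replicate 3, 5 without mbl-1 adult replicate 3 and 879 without both), 123CUG at L4 (2342, and 1522 in the 24-library fit), 0CUG strains at L4 (191, 563 with DESeq2, 714 with no filter, 484 in the 24-library fit, and 105 to 333 with a library left out), 123CUG strains at L4 (1561, and 880 as the lowest with a library left out), 123CUG in 2-day adults (1416, and 937 to 2172) and 123CUG strains in 2-day adults (759, 1169 with no filter, and 429 as the lowest). With the replicate block at L4, K08D8.5 was called in 123CUG against 0CUG (log2 0.26, edgeR adjusted p = 0.0491) and F08G5.6 was not (edgeR adjusted p = 0.0728), and the count of members stayed at 2. In no set did every library correlate best with its own number. The depth of sysm-1 at L4, 6 to 82 reads a library, limits that comparison.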
